A study of Mus musculus with 2 samples.

Results

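Among transcription factors that drive epithelial-mesenchymal transition (EMT), Twist1, Zeb1, Snai2 and Zeb2 were at moderate levels in 14837 pancreatic tumour cells kept in fibroblast-conditioned medium, while Snai1 and Twist2 had 8 and 0 counts. Of their epithelial counterparts, only the splicing regulator Esrp2 was at a comparable level, and Grhl2, Ovol1 and Esrp1 had 1, 15 and 0 counts. The 10 genes described here were chosen by symbol: 6 EMT transcription factors (Snai1, Snai2, Zeb1, Zeb2, Twist1 and Twist2) and 4 epithelial regulators (Grhl2, Ovol1, Esrp1 and Esrp2). All 10 were found among the 21983 gene entries of the table.

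The cells are a mouse pancreatic ductal adenocarcinoma (PDAC) line, 14837, of the C57BL/6 strain. Conditioned medium is medium in which other cells have grown. For 48 h the cells received either medium from CAFs, the cancer-associated fibroblasts of the tumour stroma, or medium from 14837 cells themselves, with 1 library of RNA per medium. The labels name no genetic change in the line, whether it is 1 clone, or the origin of the CAFs. Of 2 value columns, 1 was named CAF, and the other carried a name that fits no label of either library. The latter was not used, so no comparison of media was made and every value below is a level within the CAF-medium library.

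EMT is the change by which epithelial cells lose their junctions and gain a mesenchymal, motile character, and pancreatic cancer cells are often found at stages between both states. SNAI and ZEB proteins are zinc-finger repressors and TWIST proteins are basic helix-loop-helix factors. They bind short DNA motifs called E-boxes and repress epithelial genes such as the one for E-cadherin. GRHL2 and OVOL proteins are transcription factors that keep the epithelial state and oppose ZEB1, and ESRP1 and ESRP2 are RNA-binding proteins that set the epithelial splicing pattern.

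The library held 21269197 counts, and 11569 entries (52.6%) had at least 10 counts. Levels between genes are compared as counts per 1000000 counts (CPM) per kilobase of the gene's longest protein-coding transcript, since longer transcripts collect more counts. The median gene of those with at least 10 counts stood at 11.9 CPM per kilobase. Brackets give exact Poisson 95% intervals for levels and exact binomial 95% intervals for ratios. They cover counting error only, because there was no second culture, and no test between groups was made. For a count of 0, the exact Poisson 95% interval reaches 3.69 counts, or 0.173 CPM. The plot of member levels marks a fixed, slightly lower limit of 3 counts, or 0.141 CPM. Some genes that most cells use, among them Atp5a1, Uqcrc1 and the splicing factor Srsf1, were also listed at 0, so a listing at 0 need not come from sampling. It is not described as absence or as a low level, and no ratio to such a gene is given. Gapdh, likewise used by most cells, had 425 counts, and Actb had 35492. Counts above 0 may therefore also differ from true levels by more than sampling, which the intervals do not cover. The reason was not tested.

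The labelled cell type was checked against its markers. Of 12 ductal epithelial markers, 9 had at least 10 counts, beside 52.6% of all entries, and 8 exceeded the median gene, beside 26.3% of all genes. They were led by the keratins Krt18 at 1266 and Krt8 at 407 CPM per kilobase, followed by Krt19 at 265 and Krt7 at 134. Epcam had 2 counts, and Cldn4 and Cftr were listed at 0. EMT factors are also known from fibroblasts and leukocytes, so markers of other cells were read as well. Fibroblast markers came to 37.0 CPM in sum over 12 genes, of which 3 had at least 10 counts: Pdgfra with 727, Col1a1 with 29 and Fap with 26. The matrix genes Col1a2, Col3a1, Dcn, Lum and Postn, and Thy1 and Pdpn, were listed at 0. Of 8 macrophage and leukocyte markers, 3 had at least 10 counts (Cd14, Cd68 and Cd74), while Ptprc had 1 count and Csf1r, Itgam and Lyz2 were listed at 0. None of 6 endothelial markers reached 10 counts, the highest being Pecam1 with 5, and of 8 acinar markers 3 did, with at most 16 counts. In bulk RNA, fewer cells that express a gene and less RNA per cell cannot be told apart.

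Sequences before the transcription start are shown for members where the E-box motif or the CpG content can be set beside the counts. RefSeq promoters of build GRCm38.p6 were matched for 4 members (Snai1, Twist1, Twist2 and Zeb2). The promoter set used here held no entry for Snai2, Zeb1, Grhl2, Ovol1, Esrp1 and Esrp2, so no epithelial counterpart is covered. The E-box was searched as CACCTG or CAGGTG, which are the same motif on either strand, in the 250 bases before each start. Of 32851 promoters, 17.2% held at least 1. Among the 7 starts of the 4 members only that of Snai1 did, with the motif beginning 126 bases before the start. The promoter of Snai1 (chr2:167537945-167538194, plus strand) is followed by that of Epcam (chr17:87635729-87635978, plus strand), an epithelial surface protein gene, with E-boxes beginning 187 and 19 bases before the start. Capitals mark the E-boxes, and a match describes letters, not binding.
Snai1: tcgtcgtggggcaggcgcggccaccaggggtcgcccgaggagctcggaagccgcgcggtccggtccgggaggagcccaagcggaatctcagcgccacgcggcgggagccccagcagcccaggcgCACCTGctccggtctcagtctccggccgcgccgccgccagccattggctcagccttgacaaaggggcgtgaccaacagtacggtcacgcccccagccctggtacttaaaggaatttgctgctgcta
Epcam: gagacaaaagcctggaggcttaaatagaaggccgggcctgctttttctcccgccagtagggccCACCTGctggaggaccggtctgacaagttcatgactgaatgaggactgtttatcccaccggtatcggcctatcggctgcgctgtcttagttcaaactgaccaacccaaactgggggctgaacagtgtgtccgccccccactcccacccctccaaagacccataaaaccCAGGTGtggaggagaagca
Beside these sequences, Snai1 had 8 counts and Epcam 2. Epcam is not 1 of the 10 genes, and its promoter was chosen after values were seen. No promoter is shown for Cdh1, the E-cadherin gene, which had 7869 counts. Of the members without an E-box in this window, Twist1 had 545 counts, Zeb2 1066 and Twist2 0. Counts over all promoters with an E-box were not summarised, and a link between motif and counts was not tested.

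The Twist paralogs are shown because both promoters hold many CpG pairs, in capitals, while Twist1 had 545 counts and Twist2 was listed at 0. Twist1 (chr12:33957421-33957670, plus strand) held 18 CpG pairs and Twist2 (chr1:91801211-91801460, plus strand) 23.
Twist1: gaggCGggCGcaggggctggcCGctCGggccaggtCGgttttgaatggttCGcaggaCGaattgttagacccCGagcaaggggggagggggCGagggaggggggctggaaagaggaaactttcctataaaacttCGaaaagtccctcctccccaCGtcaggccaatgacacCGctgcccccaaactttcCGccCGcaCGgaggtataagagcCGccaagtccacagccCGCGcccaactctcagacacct
Twist2: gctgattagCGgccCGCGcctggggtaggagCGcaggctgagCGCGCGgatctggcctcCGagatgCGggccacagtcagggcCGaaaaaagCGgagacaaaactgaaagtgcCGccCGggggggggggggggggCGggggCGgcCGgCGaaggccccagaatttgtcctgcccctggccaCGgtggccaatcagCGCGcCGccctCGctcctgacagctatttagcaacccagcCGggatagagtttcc
The ratio of observed to expected CpG was 0.74 for Twist1, 0.788 for Twist2 and 0.882 for Snai1, and over the 4 starts of Zeb2 it ran from 0.347 to 0.675. Of 16487 protein-coding genes with a promoter, 8148 had a ratio of at least 0.6 at their richest start, and 82.2% of those had at least 10 counts while 12.1% were listed at 0. By that threshold all 4 members were CpG-rich, with Twist1 and Zeb2 at 10 counts or more and Snai1 and Twist2 at 8 and 0. With a ratio of at least 0.75, Twist1 and Zeb2 were no longer in the CpG-rich group, of which 85.3% had at least 10 counts. Below a ratio of 0.6, 29.1% of genes had at least 10 counts.

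Of the 10 members, 6 had at least 10 counts (52.6% of all entries did), 8 had at least 1 count (63.4% of entries) and 5 at least 100 counts (44.5% of entries). The 2 members listed at 0 compare with 36.6% of entries. These shares are near the background, so the number of detected members is no result about them.

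The 6 EMT transcription factors together had 3964 counts, or 186 CPM. Of the 6, 4 had at least 10 counts (52.6% of all entries did). The median of all 6 was 7.84 CPM per kilobase, against 0.409 for all genes with a length, which include those listed at 0. Among genes with at least 10 counts, the factors had a median of 12.8, close to the 11.9 of all such genes. The 2 factors above the median gene, Twist1 and Zeb1, compare with 26.3% of all genes. The plot of member levels shows the order of the 10 genes.

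**Figure D1:**
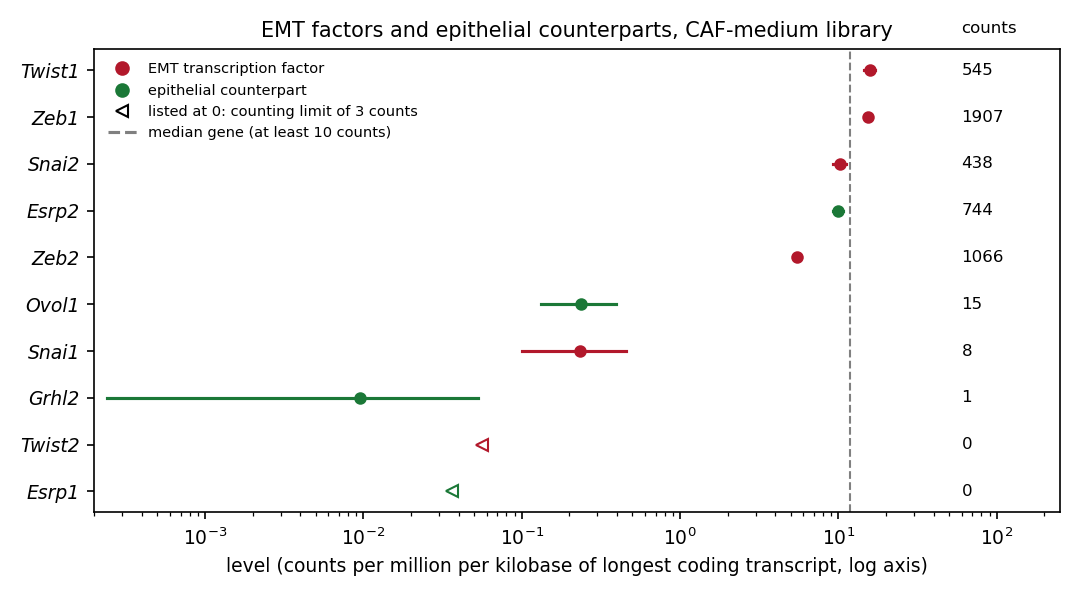
Levels of the 10 genes in the CAF-medium library, in CPM per kilobase on a log axis, with exact Poisson 95% intervals as bars and counts at the right; open triangles mark the limit of 3 counts for genes listed at 0, and the dashed line the median gene. Twist1, Zeb1, Snai2, Esrp2 and Zeb2 lie between 5.49 and 15.7, and Ovol1, Snai1 and Grhl2 at 0.237 or below.

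Zeb1, a repressor with zinc-finger clusters at both ends (chromosome 18, 5591860 to 5775467, plus strand, mm10), had the most counts of the 10 genes, 1907, or 89.7 CPM (85.7 to 93.8). Per kilobase of its 5801-base transcript this came to 15.5 (14.8 to 16.2), at percentile 57.7 of genes with at least 10 counts. Its paralog Zeb2 (chromosome 2, 44983632 to 45117395, minus strand) reached 1066 counts, which is 50.1 CPM and 5.49 CPM per kilobase (5.17 to 5.83), at percentile 31.4. Zeb1 therefore stood 2.81 times above Zeb2 per kilobase (2.61 to 3.04), a difference outside counting error. Of the group's counts, with no length taken into account, Zeb1 held 48.1% and Zeb2 26.9%. Per kilobase the shares were 32.8% for Zeb1 and 11.7% for Zeb2, beside 33.4% for Twist1 and 21.6% for Snai2. Exons of other genes, mainly Zeb2os, overlapped 3.3% of the exonic bases of Zeb2.

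Twist1, the helix-loop-helix factor of early mesoderm (chromosome 12, 33957671 to 33959829, plus strand), was at 545 counts, which is 25.6 CPM. On its short transcript of 1628 bases this gave 15.7 CPM per kilobase (14.4 to 17.1), at percentile 58.2. On this length Zeb1 stood at 0.982 times Twist1 (0.892 to 1.08), not distinguishable by counting error. Zeb1 was at 0.555 times Twist1 (0.504 to 0.611) on merged exons, at 0.645 times on coding sequence and at 6.33 times on the median coding transcript, so the order of this pair depends on length. Twist2 (chromosome 1, 91801461 to 91848028, plus strand), its close paralog, was listed at 0, against the 545 counts of Twist1. Exons of another gene, Gm29100, overlapped 46.5% of the exonic bases of Twist2, and the rule for reads in such bases is not given in the sources used here. Both Twist genes had 0% of their transcript windows in common with other genes, so no sampled window of 64 bases was found in both.

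Snai2, also called Slug (chromosome 16, 14705852 to 14709385, plus strand), stood at 438 counts. This is 20.6 CPM (18.7 to 22.6) and 10.2 CPM per kilobase (9.26 to 11.2), at percentile 45.6. Snai1, or Snail, the classical repressor of the E-cadherin gene (chromosome 2, 167538195 to 167542814, plus strand), was at 8 counts or 0.376 CPM (0.162 to 0.741). Per kilobase Snai2 stood 43.9 times above Snai1 (22.1 to 102). Both genes have a single coding transcript of 3 exons, and neither overlapped exons of another gene. The less studied family member Snai3 had 102 counts and 2.95 CPM per kilobase, between the other SNAI genes.

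Per kilobase of the longest coding transcript the order of the EMT factors was thus Twist1 and Zeb1, then Snai2, then Zeb2, with Snai1 far below and Twist2 listed at 0. Twist1 exceeded Snai2 by 1.54 times (1.36 to 1.76), and Zeb2 stood at 0.539 times Snai2 (0.482 to 0.604), or 2.79 times on the median coding transcript. The place of Zeb1 depends on length: it was 1.52 times Snai2 on the longest coding transcript (1.37 to 1.69) and 0.857 times Snai2 on all exons merged (0.772 to 0.953). On the median coding transcript, which is 900 bases long for Zeb1, Zeb1 reached 99.6 and Zeb2 28.4 CPM per kilobase, above Twist1 at 15.7. That length is shorter than the longest coding sequence of Zeb1, which has 3351 bases. For Zeb2 it is 1762 bases, against a coding sequence of 3777. A transcript of this length cannot hold the full coding sequence, a limit on every value given here for these genes on the median coding transcript.

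**Figure D2:**
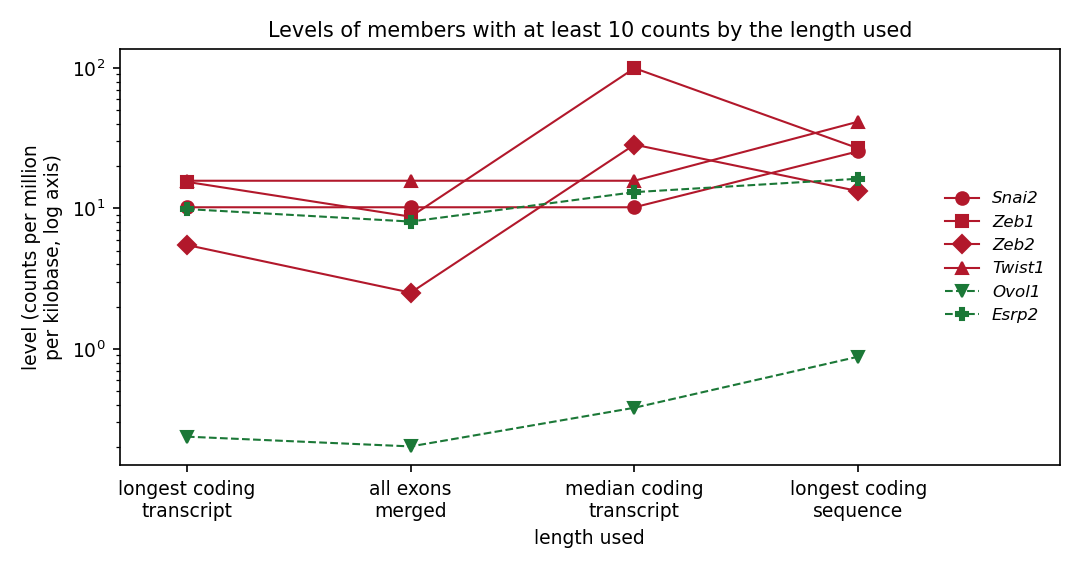
Levels of the 6 members with at least 10 counts, in CPM per kilobase on a log axis, under 4 choices of gene length, with EMT factors as solid lines and epithelial counterparts as dashed lines. The order of Zeb1, Zeb2, Snai2 and Esrp2 changes with the length, and Ovol1 is lowest under each of the 4.

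The 4 epithelial counterparts had 760 counts in all, or 35.7 CPM, and 97.9% of them came from Esrp2. Of the 4, 2 had at least 10 counts (52.6% of all entries did) and none exceeded the median gene (26.3% of all genes did). The median was 0.123 CPM per kilobase over all 4, against 0.409 for all genes with a length. Over the 2 with at least 10 counts it was 5.06, against 11.9 for all such genes. Summed per kilobase, the 6 EMT factors came to 47.1 and the 4 counterparts to 10.1 CPM per kilobase, a ratio of 4.65. It was 4.52 on merged exons, 6.26 on coding sequence and 11.4 on the median coding transcript. These ratios compare sums over unequal numbers of genes and were not adjusted for that. The sums also include Twist2 and Esrp1, for which no counts were listed, so the ratios are not read as a balance between the groups.

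Grhl2, a grainyhead-like factor that activates E-cadherin and claudin genes (chromosome 15, 37233036 to 37363569, plus strand), had 1 count. Its level was 0.0095 CPM per kilobase (0.000241 to 0.053), and the ratio of Zeb1 to Grhl2 was 1626 per kilobase, with a wide interval from 292 to 64267. Of its paralogs, Grhl1 had 428 counts and 5.8 CPM per kilobase (5.26 to 6.38), at percentile 32.5, and Grhl3 was listed at 0. Grhl1 exceeded Grhl2 by 610.4 times per kilobase (109 to 24163), so within the family the counts lay with Grhl1.

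Ovol1, a zinc-finger repressor of Zeb1 (chromosome 19, 5549136 to 5560646, minus strand), reached 15 counts or 0.705 CPM (0.395 to 1.16). At 0.237 CPM per kilobase it lay at percentile 2.71 of genes with at least 10 counts, a minimum close to its own count. With no minimum it lay at percentile 48. Its level could not be told from that of Snai1 (ratio 1.02, 0.407 to 2.79). Exons of Gm31166 overlapped 22% of the exonic bases of Ovol1, and reads in those bases cannot be told apart without the strand setting. Ovol2 was listed at 0 and Ovol3 had 4 counts.

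Esrp2 (chromosome 8, 106130319 to 106136974, minus strand) reached 744 counts, which is 35.0 CPM (32.5 to 37.6) and 9.89 CPM per kilobase (9.19 to 10.6), at percentile 44.7. Its paralog Esrp1 (chromosome 4, 11331933 to 11386783, minus strand) was listed at 0. Of the 4 counterparts, Esrp2 was the 1 with a level like those of Snai2 and Zeb2. It stood at 0.971 times Snai2 (0.862 to 1.1) on the longest coding transcript, at 0.791 times (0.702 to 0.892) on merged exons, at 0.637 times on coding sequence and at 1.28 times on the median coding transcript. Its order against Snai2 is thus set by the length used. Against Zeb2, Esrp2 was higher on the longest coding transcript, at a ratio of 1.8 (1.64 to 1.98), and on merged exons, at 3.21 (2.92 to 3.53). Esrp2 was also higher than Zeb2 on coding sequence. Only the median coding transcript reversed this, with a ratio of 0.459 (0.417 to 0.505). For Zeb2 that length is 1762 bases, too short for its coding sequence of 3777, so that value cannot decide the order. Exons of other genes, chiefly the neighbour Nfatc3 with 1815 counts, overlapped 7.79% of the exonic bases of Esrp2, and reads in those bases cannot be assigned without the counting rules.

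**Figure D3:**
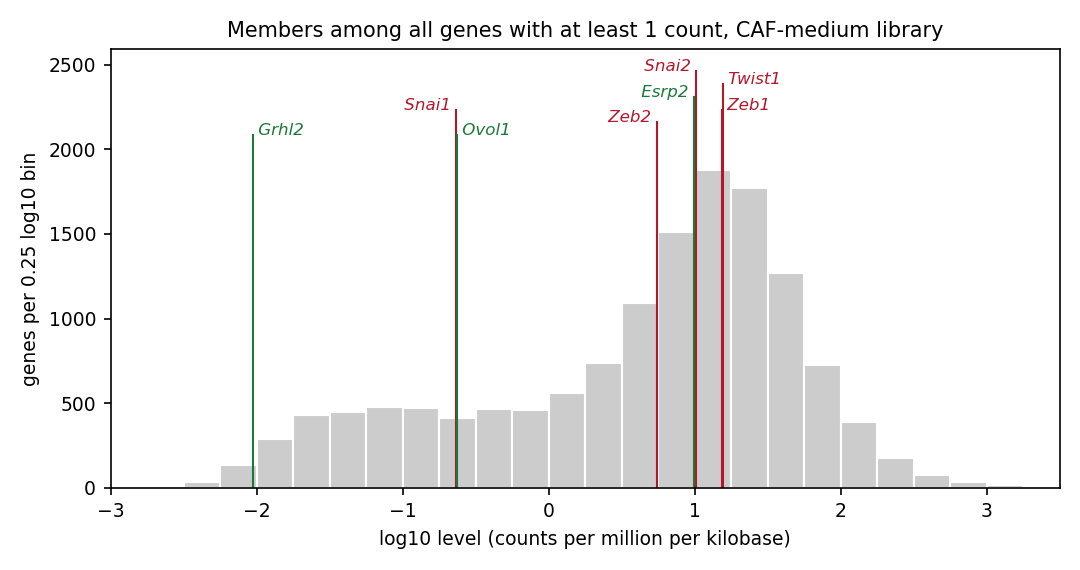
Number of genes by log10 level in CPM per kilobase, over all genes with at least 1 count (grey bars), with the 8 members that had counts as vertical lines. Twist1, Zeb1, Snai2, Esrp2 and Zeb2 fall near the peak of the distribution, and Snai1, Ovol1 and Grhl2 in its low tail.

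Other genes of the EMT program were read from lists of known genes, each given by the number with at least 10 counts (52.6% of all entries) and the number above the median gene (26.3% of all genes). Of 13 other EMT-associated transcription factors, 7 had at least 10 counts and 2 exceeded the median gene. These were the AP-1 subunit gene Fosl1 at 259.5 CPM per kilobase and Sox4 at 57, although exons of other genes overlapped 57.2% and 54.5% of their exonic bases. Foxq1 followed at 8.17, with 66% overlapped. Prrx1, a mesenchymal homeobox factor, had 6 counts, Klf8 4 and Foxc2 2, and Gsc, Six2 and Tbx3 were listed at 0.

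The E proteins, with which TWIST proteins form dimers, and the Id proteins, which block such dimers, were mostly present. Of 7, 6 had at least 10 counts and 4 exceeded the median gene. Tcf12 stood at 32.4, Tcf3 at 29.8, Id2 at 27.9 and Id1 at 21.4 CPM per kilobase, while Id4 had 5 counts. These 4 were above Twist1 on the longest coding transcript, but on merged exons Tcf12 at 13.2 was below Twist1 at 15.7.

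Of 15 other epithelial transcription factors and splicing regulators, 10 had at least 10 counts and 7 exceeded the median gene. Klf5 stood at 74.1 CPM per kilobase, the ETS factor Elf3 at 32.5, the endodermal factor Foxa2 at 30.8 and Gata6, a factor of pancreatic epithelium, at 20.2. Elf5 and Trp63 were listed at 0, as were Grhl3 and Ovol2. The low counts of Grhl2 and Ovol1, and the listing of Esrp1 at 0, were therefore not shared by every epithelial regulator.

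The genes that EMT factors are known to repress were uneven. Of 20 epithelial genes, 14 had at least 10 counts but 3 exceeded the median gene. The list's median was 1.92 CPM per kilobase, against 0.409 for all genes with a length. Cdh1, which encodes E-cadherin, stood at 83.5 CPM per kilobase (81.7 to 85.4), at percentile 92.7 and 5.4 times Zeb1 (5.14 to 5.68), or 0.973 times on the median coding transcript. The desmosome gene Dsp stood at 25.4, the polarity genes Crb3 and Patj at 12.6 and 10.9. The claudin genes Cldn4 and Cldn7, the membrane protease gene St14, its inhibitor Spint1 and the sorting adaptor Ap1m2 were listed at 0, and Epcam had 2 counts. Cdh1 was 1812 times above Epcam per kilobase (501 to 14963).

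Of 22 mesenchymal genes, 11 had at least 10 counts and 5 exceeded the median gene, shares near those of all genes. The median of this list was 0.104 CPM per kilobase, against 0.409 for all genes with a length. Vim, the intermediate filament vimentin, stood at 227 (223 to 231), fibronectin Fn1 at 106, N-cadherin Cdh2 at 21.6 and the integrin Itga5 at 20.3. Cdh1 stood at 0.368 times Vim per kilobase (0.357 to 0.379), or 0.77 times on merged exons (0.748 to 0.793). Listed at 0 were 8 genes, among them the collagens Col1a2, Col3a1 and Col5a2 and the crosslinking enzyme gene Lox.

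**Figure D4:**
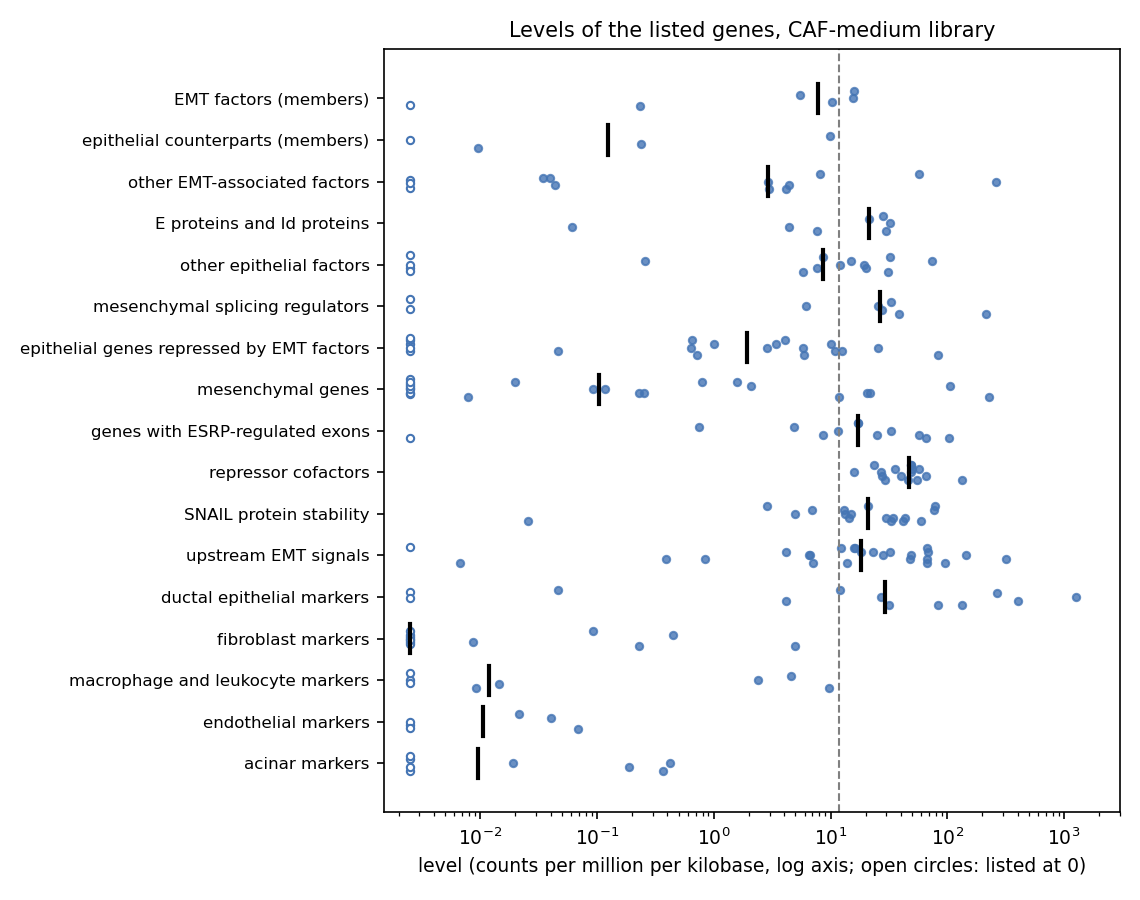
Levels of each listed gene in CPM per kilobase on a log axis, 1 row per list. Open circles mark genes listed at 0, and black bars the list medians over all members. The dashed line marks the median gene of those with at least 10 counts, while the median over all genes with a length was 0.409. All 16 repressor cofactors lie right of the dashed line. The epithelial counterparts have a median of 0.123, and fibroblast markers are mostly at 0.

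ESRP proteins act on splicing, which counts per gene do not show, so levels of their targets say nothing of exon choice. Of 12 genes with exons regulated by ESRP proteins, 11 had at least 10 counts and 7 exceeded the median gene. Rac1 stood at 104 CPM per kilobase, with 51.3% of its exonic bases overlapped by other genes, Slk at 65.1, the hyaluronan receptor gene Cd44 at 57.7 and Scrib at 32.6. The receptor gene Fgfr2, whose paired exons are a textbook ESRP target, was listed at 0. Of 8 other splicing factors linked to EMT, 6 had at least 10 counts and 5 exceeded the median gene, namely Ptbp1 at 216, Qk at 38.9, Mbnl2 at 33, Rbfox2 at 27.4 and Mbnl1 at 25.5. Each of these 5 was above Esrp2 on the longest coding transcript, but on merged exons Mbnl1 at 7.7 was below Esrp2 at 8.06.

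The corepressors that SNAI and ZEB proteins recruit were present throughout the list. All 16 had at least 10 counts and all 16 exceeded the median gene. Their median was 47.2 CPM per kilobase. The nucleosome remodeller Chd4 stood at 133, Rcor1 at 65.1, the histone deacetylase Hdac2 at 57.1 and the demethylase Kdm1a at 54.8. Such genes are broadly expressed, and the count is a description of this library.

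SNAI1 protein is short-lived, and of 17 genes that act on its stability, 16 had at least 10 counts and 13 exceeded the median gene. The kinase gene Csnk1e stood at 78.2 CPM per kilobase, Fbxw11 and Fbxo11, which encode substrate receptors of ubiquitin ligases, at 77 and 43.7, and the signalosome subunit Cops2 at 59.7. The kinase gene Prkd1 had 2 counts. Of 25 genes for signals upstream of EMT, 23 had at least 10 counts and 17 exceeded the median gene. Beta-catenin, Ctnnb1, stood at 320.3 CPM per kilobase, the chromatin protein Hmga2 at 146, Hif1a at 96 and the YAP paralog gene Wwtr1 at 67.9. The ligand genes Hgf and Wnt5a had 0 and 1 counts.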

How the data were processed

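Per the labels, 14837 cells grown in DMEM with 10% serum were kept for 48 h in conditioned medium, and 2 ug of Trizol-extracted RNA went into each library. The deposited values are whole-number counts per gene symbol made by the authors. StringTie, HISAT2 2.1.0 and the build mm10 appear in the submitters' processing notes without a stated role. For the counting rules, strand setting and annotation, nothing is given in the sources used here.

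The table had 2 value columns, of which 1 matched no label and was not used. The planned comparison of the media was therefore not made. CPM is the count divided by the column total of 21269197, times 1000000. Lengths, overlaps and coordinates (1-based) came from GENCODE M21 (GRCm38), to which 99.6% of symbols matched. The longest coding transcript was used, because merged exons can exceed any transcript. Windows of 64 bases every 16 bases gave the sequence shared with other, non-overlapping genes. Promoters came from RefSeq.

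The members and lists were chosen with earlier results of these data known. A list of microRNA genes matched no symbol and was not analysed here. Named were all members, 9 further genes and up to 4 of the highest per list, of which 1 is not reported here. Others were chosen after their values were seen, as were pairs beyond those within families and all promoter values. Alternatives were other lengths, totals and minimum counts. Python 3.11.15, numpy 2.4.6, scipy 1.17.1 and matplotlib 3.10.9 were used.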

Additional observations from a re-analysis of the deposited data

How the results depend on the processing

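Of the 10 members, 6 had at least 10 counts, 8 at least 1 count and 5 at least 100 counts. The ratio of Zeb1 to Zeb2 was 1.79 on counts, 3.48 on merged exons and 2.02 on coding sequence. It kept its direction on these scales, and the ratios of Snai2 to Snai1 and of Grhl1 to Grhl2 stayed within their intervals. No ratio was made for Twist1 and Twist2, Esrp2 and Esrp1, or Ovol1 and Ovol2, because 1 gene of each pair is listed at 0. A total without mitochondrial genes and the 100 highest entries raised every level above 0 by 1.16 times. With no minimum count, Twist1 lay at percentile 78, Zeb2 at 63.9 and Ovol1 at 48. The low counts of Snai1, Ovol1 and Grhl2 give the widest intervals. The role of the read counting rules was not tested. No paired analysis was possible because each medium had 1 library and only 1 of them could be tied to a column.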
